A study of Mus musculus with 2 samples.

Results

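The semaphorin, plexin, neuropilin, ephrin and Eph genes are 2 ligand and receptor systems that steer migrating cells and growing axons. All features of the count matrices with a symbol of these families were taken (Sema3 to Sema7, Plxna to Plxnd, Nrp1 and Nrp2, Epha and Ephb, Efna and Efnb), which gave 53 genes of 32286 features. They are 7 secreted semaphorins (Sema3a to Sema3g), 13 membrane semaphorins, 9 plexins, 2 neuropilins, 9 EphA receptors, 5 EphB receptors, 5 ephrin-A and 3 ephrin-B ligands. Expression was measured by 10x 3′ single-cell RNA sequencing in flank skin of mouse embryos at stage E13.5, with 1 control and 1 mutant library, each from 2 to 3 pooled littermates. The mutant embryos came from a cross of Axin2CreER, a tamoxifen-inducible recombinase driven by a Wnt target gene, with a Rosa26 allele that yields SmoM2YFP after recombination. SmoM2 is an active form of Smoothened, the protein that relays the Hedgehog signal, fused to a yellow fluorescent protein. The control library is titled SmoM2YFP, and the genotype entry of each library contradicts its title, so groups follow the titles. In dermal cells eYFP stood at 0.410 CPM in the control and 28.9 CPM in the mutant library, and the Hedgehog target Ptch1 at 5.62 and 246 CPM. With 1 library per group no difference has a replicate check, and every interval below is a 95% interval for counting error only.

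Class 3 semaphorins are secreted and mostly signal through a neuropilin that holds the ligand and a plexin that transmits the signal, while membrane semaphorins bind plexins directly. Plexins act on small GTPases and the cytoskeleton, and neuropilins also bind vascular endothelial growth factors. Ephrin-A ligands are anchored by a lipid and ephrin-B ligands span the membrane, so Eph signalling needs cell contact and can run into both cells. In skin these families are known from nerve and vessel patterning and from the sorting of cells at tissue borders.

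The filters left 11527 cells of the control library (96716897 UMIs) and 8514 of the mutant library (60730262 UMIs). Marker genes divided 21 clusters into 10 classes. Dermal cells numbered 8756 and 5142, epidermal cells 553 and 1390, muscle cells 993 and 723, macrophages 341 and 323, and Schwann and glial cells 351 and 179. All 10 dermal markers reached 10 CPM in dermal cells of both libraries, and 9 of 10 epidermal markers did so in epidermal cells. Levels are counts per 1000000 summed UMIs of a class (CPM). UMIs count 3′ ends, so a CPM does not scale with the length of the gene. In pooled class sums, a smaller share of expressing cells and less RNA per cell cannot be told apart.

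All 53 genes are protein coding in GENCODE M21 (GRCm38, the mm10 build), and none shares its 3′ end with another counted gene on the same strand. RefSeq promoter entries of the same genome (GRCm38.p6) were found for 47 of them. Efnb3, Plxna1, Plxna4, Sema3b, Sema3f and Sema6a had none and were not searched. Of these, Sema6a and Plxna1 are the genes called higher in mutant dermal cells below. A pair of motifs was searched on both strands in the 250 bases before the transcription start: GACCACCCA for GLI factors, which carry the Hedgehog response, and ATCAAAG for TCF and LEF factors, which carry the Wnt response. The GLI motif was in 0 of 61 member promoters and in 0.225% of all 32851 promoters of that length. A motif this rare would mostly be absent from a set of this size, so the 0 matches do not set these genes apart. The TCF and LEF motif was in 1 member promoter, that of Nrp2, and in 3.21% of all promoters. Printed here are the promoters of ephrin-A5 (Efna5, chr17:62881318-62881567, minus strand), of its receptors EphA3 (Epha3, chr16:63864176-63864425, minus strand) and EphA5 (Epha5, chr5:84417383-84417632, minus strand), which in control dermal cells were low in the clusters where the ligand was high, and of Nrp2 (chr1:62703067-62703284, plus strand), with its motif match in capitals. Each ends at the base before the annotated gene start and is written 5′ to 3′ on the strand of the gene, and the parts of the Nrp2 window inside the gene were left off.
Efna5: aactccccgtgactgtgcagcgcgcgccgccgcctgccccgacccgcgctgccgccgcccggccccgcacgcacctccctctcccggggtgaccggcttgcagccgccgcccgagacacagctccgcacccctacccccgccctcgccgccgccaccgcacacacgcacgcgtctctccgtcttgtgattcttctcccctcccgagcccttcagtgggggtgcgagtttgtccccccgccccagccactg
Epha3: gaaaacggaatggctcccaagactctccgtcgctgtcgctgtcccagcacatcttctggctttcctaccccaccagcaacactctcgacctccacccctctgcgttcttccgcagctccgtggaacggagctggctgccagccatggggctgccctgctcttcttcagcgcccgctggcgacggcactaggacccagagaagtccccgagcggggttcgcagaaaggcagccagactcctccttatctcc
Epha5: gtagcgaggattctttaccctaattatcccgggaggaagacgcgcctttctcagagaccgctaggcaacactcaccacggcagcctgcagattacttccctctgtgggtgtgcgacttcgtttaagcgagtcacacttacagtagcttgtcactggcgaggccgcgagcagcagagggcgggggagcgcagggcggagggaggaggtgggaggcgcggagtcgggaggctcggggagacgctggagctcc
Nrp2: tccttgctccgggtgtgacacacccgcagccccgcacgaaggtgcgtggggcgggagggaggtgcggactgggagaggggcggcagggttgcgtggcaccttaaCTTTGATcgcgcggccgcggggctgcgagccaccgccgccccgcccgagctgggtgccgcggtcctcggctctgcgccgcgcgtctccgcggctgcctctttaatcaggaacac

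Of the 53 genes, 45 reached 10 CPM in at least 1 class, leaving out the erythroid class, which carried dermal RNA. For 35 of the 45, the class with the highest level was the same in both libraries, namely Schwann and glial cells for 11, dermal cells for 9, endothelial cells for 7, epidermal cells for 2, melanoblasts for 2, and macrophages, muscle, mural cells and mast cells for 1 each. The interval of the highest class lay clear of that of the next class in both libraries for 17 of the 35, and overlapped it in at least 1 library for the other 18. Of these 17 genes, 5 were dermal, 5 endothelial, and 3 of Schwann and glial cells. Among the 18 with overlap was Epha7, at 17.0 CPM in Schwann and glial cells against 16.9 CPM in dermal cells of the control library. The 8 genes under 10 CPM in every class were Epha6, Epha8, Epha10, Ephb6, Sema3e, Sema4f, Sema4g and Sema7a. Nrp1 reached its highest level in dermal cells of the control library (229 CPM) and in endothelial cells of the mutant library (163 CPM).

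**Figure D1:**
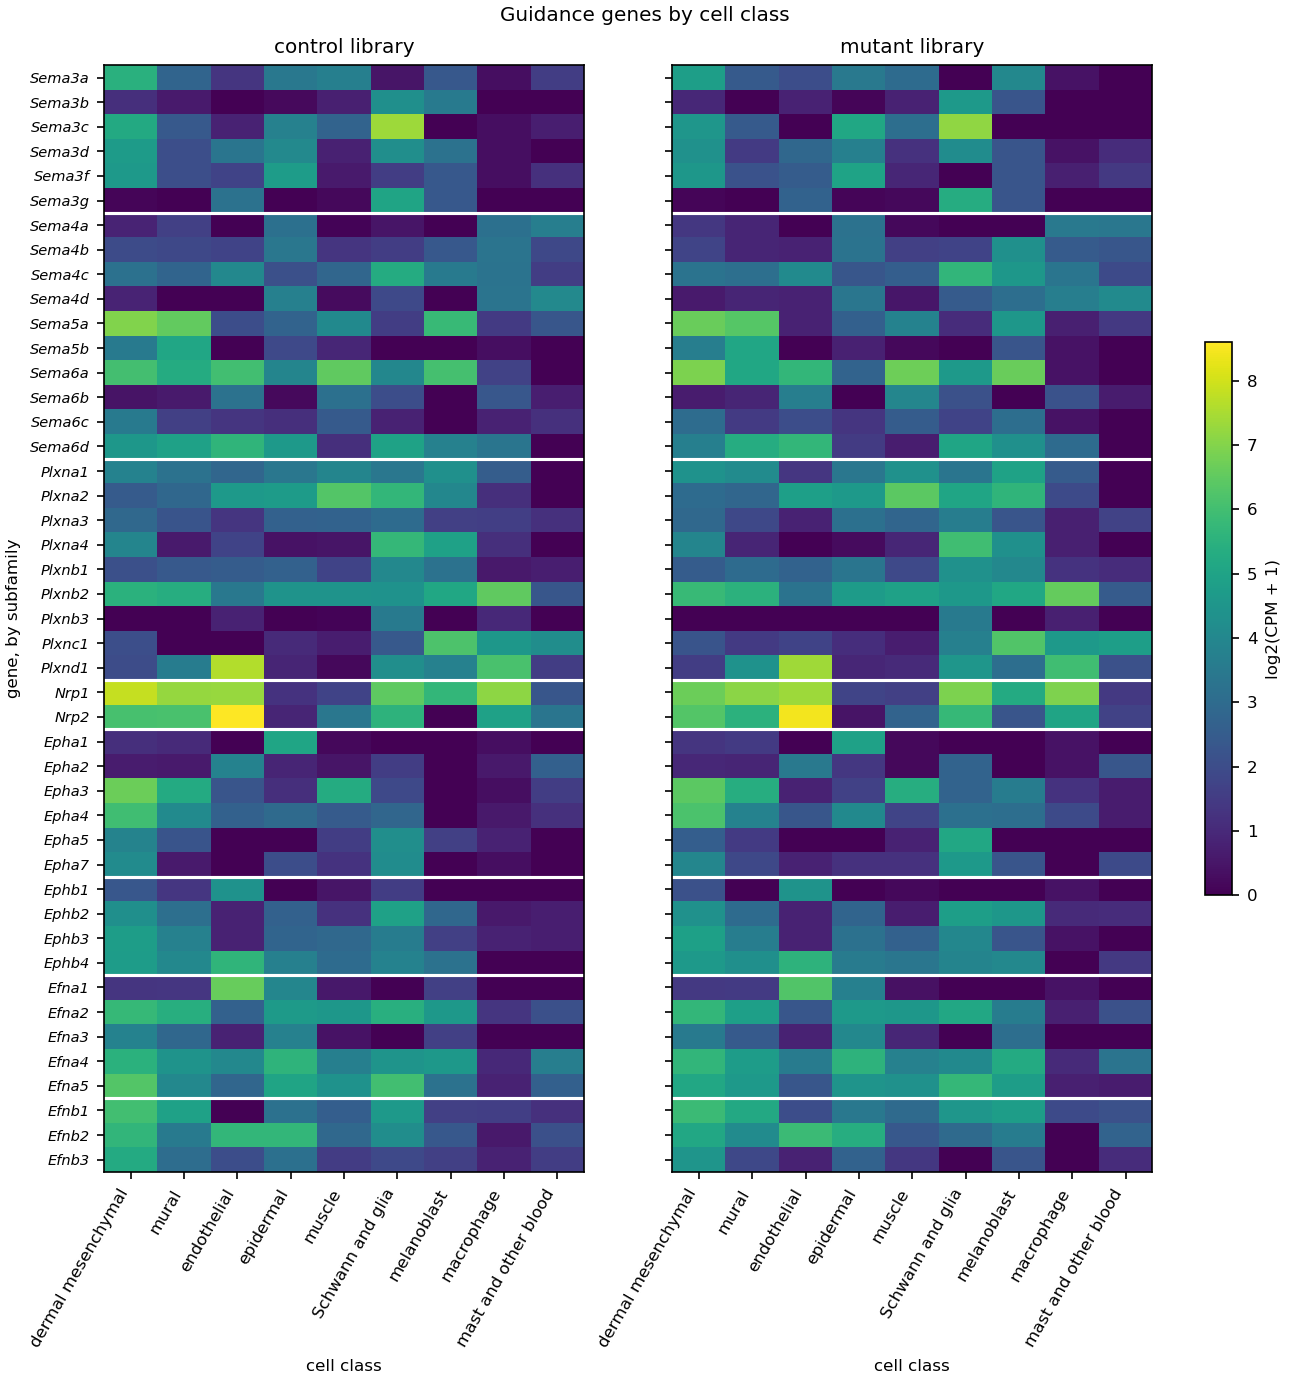
Levels of the 45 genes that reached 10 CPM in a cell class, as log2(CPM + 1), with genes in rows by subfamily (white lines) and classes in columns, for the control (left) and mutant (right) library. Endothelial Nrp2 is the brightest cell in both panels, at 385 and 347 CPM.

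Endothelial cells (143 and 161) carried the receptors of vascular guidance. All 5 lymphatic markers reached 10 CPM in this class, summing to 1587 and 1118 CPM, so blood and lymphatic vessel cells were not separated. Several genes in this paragraph were named after their values were seen, since the class held fewer than 150 control cells. Nrp2, a receptor for class 3 semaphorins and VEGF-C, stood at 385 CPM (352 to 420) in the control and 347 CPM (316 to 381) in the mutant library. The next class had 69.2 CPM in the control library (mural cells) and 76.9 CPM in the mutant library (dermal cells). Plxnd1, the plexin of developing vessels, stood at 194 and 166 CPM, above macrophages at 68.9 and 61.5 CPM. Ephrin-A1 (Efna1), a ligand first found in endothelial cells, was at 96.7 (80.6 to 115) and 75.9 CPM (61.5 to 92.5), and epidermal cells came next at 14.5 and 12.5 CPM. The arterial ligand ephrin-B2 (Efnb2) and its venous receptor EphB4 (Ephb4) were both present, at 50.7 and 57.1 CPM and at 48.4 and 46.1 CPM. The secreted semaphorins summed to 22.3 and 20.3 CPM there. Of 14 genes at 10 CPM or more, 0 differed by 1.5-fold between the libraries, where 7.02% of all genes that reached 10 CPM were higher and 8.36% lower.

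Epidermal cells were marked by EphA1 (Epha1), the founding member of the Eph family, at 32.2 (27.7 to 37.1) and 29.1 CPM (26.1 to 32.5). The next class stood at 1.23 CPM in the control library and 1.75 CPM in the mutant library. Nrp1 was at 1.38 and 2.42 CPM in these cells, against 229 and 102 CPM in dermal cells. The ligands ephrin-A4 (Efna4, 47.1 and 46.6 CPM) and ephrin-B2 (51.4 and 40.2 CPM) had the highest levels in the epidermis among these genes.

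Schwann and glial cells expressed 27 of the 53 genes at 10 CPM or more. Sema3c, a secreted semaphorin, stood at 160 (145 to 176) and 143 CPM (119 to 170), above the next class at 36.6 CPM (dermal, control) and 33.9 CPM (epidermal, mutant). Plxna4, a plexin that works with neuropilins in sensory axons, stood at 51.5 and 61.7 CPM, Sema3g at 31.4 and 38.8 CPM, and Plxnb3 at 10.5 and 10.3 CPM against at most 0.999 CPM in the next class. In these 27 genes 4 were at least 1.5-fold higher (8.36% of all genes) and 2 lower (6.08%) in the mutant library, from only 351 and 179 cells. EphA5 (Epha5) rested on 47 and 30 UMIs and stood at 18.2 and 34.3 CPM, 1.88-fold higher in the mutant library (1.15 to 3.04). Plxna2 stood at 51.1 and 32.0 CPM, a ratio of 0.626 (0.401 to 0.947).

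Macrophages had no ephrin at 10 CPM and were led by receptors: Nrp1 at 140 and 121 CPM, Plxnb2 at 89.6 and 93.5 CPM, Plxnd1 at 68.9 and 61.5 CPM. Sema4a and Sema4d, membrane semaphorins known from immune cells, stood between 7.99 and 11.8 CPM there. Of 7 genes at 10 CPM, 0 differed by 1.5-fold, where 5.22% of all genes were higher and 4.14% lower. In melanoblasts (59 and 50 cells) Plxnc1, a receptor of Sema7a, had its highest level, at 71.6 CPM (49.6 to 100.1) and 75.2 CPM (45.9 to 116). With these few cells a ratio between the libraries was not readable: 22.8% of all genes were at least 1.5-fold higher and 16.6% lower. Mural cells had the highest Sema5b, at 33.3 and 33.2 CPM, and 4 of 18 genes were higher (7.42% of all genes) and 1 lower (5.99%), the lower 1 being Nrp2 at 69.2 and 44.6 CPM. Among mast and other blood cells 1 of 4 genes was higher (6% of all genes), Plxnc1 at 17.7 and 27.5 CPM, and 0 were lower (6.57%).

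Muscle cells were led by Sema6a, a membrane semaphorin, at 89.7 and 104 CPM, and by Plxna2, which binds it, at 78.5 and 84.6 CPM. EphA3 stood at 38.6 and 40.5 CPM. Cells with a UMI of Myog, the gene of committed myoblasts, numbered 453 and 383, and cells with a UMI of Pax7, the gene of myogenic progenitors, but none of Myog, 323 and 196. Sema6b was at 13.51 and 25.4 CPM in the Myog cells and at 3.15 and 2.05 CPM in the Pax7 cells. Sema6a was also higher in the Myog cells, at 112 and 130 CPM against 77.3 and 86.4 CPM. EphA3 ran the other way, at 29.6 and 30.5 CPM against 50.4 and 53.2 CPM. Plxnb2 followed EphA3, at 9.30 and 18.8 CPM against 30.5 and 44.5 CPM. Each of these 4 orders was the same in both libraries, with intervals that did not overlap. Between the libraries 1 of 11 muscle genes was higher (2.31% of all genes), Sema6b at 8.10 and 14.4 CPM, and 1 lower (1.12%), Sema3a at 12.2 and 7.05 CPM.

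In dermal cells 28 of the 53 genes reached 10 CPM in either library. At least 1.5-fold higher in the mutant library were 2 of them, where 4.38% of 8157 genes were, and 7 were lower, where 4.82% were. Their median log2 ratio, with 1 CPM added, was -0.18, against 0.01 over all 8157 genes. The 25 genes under 10 CPM were not counted. The libraries also differed in other ways: of 9 measured stress genes 4 were higher and 1 lower (Ier2 108.6 and 287 CPM), of 9 measured genes of axial position 0 were higher and 3 lower (En1 72.6 and 28.7 CPM), and hemoglobin and other erythroid genes summed to 205 and 989 CPM in dermal cells. Their part in the differences below was not tested.

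Among the receptors, Nrp1 (chr8:128358604-128503363, plus strand) had the highest dermal level of these genes in the control library and was lower in the mutant library, where Sema6a stood above it. It stood at 229 CPM (226 to 233) in the control and 102 CPM (98.3 to 105) in the mutant library, 2.25-fold lower (2.17 to 2.34). Its partner Nrp2 stood at 68.0 and 76.9 CPM, within 1.5-fold. The ligand ephrin-A5 moved like Nrp1, from 78.1 (76.0 to 80.3) to 35.0 CPM (33.0 to 37.1), 2.23-fold lower (2.09 to 2.38). EphA5, a receptor of ephrin-A5, stood at 13.4 CPM (12.5 to 14.3) and 4.89 CPM (4.16 to 5.72), a ratio of 0.365 (0.306 to 0.433). It is named here after its value was seen, since it did not reach 20 CPM.

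The remaining lower genes were ligands. Sema3a, the secreted semaphorin best known for repelling axons through Nrp1, stood at 43.5 and 27.4 CPM, a ratio of 0.631 (0.584 to 0.681). Sema3c, which can use Nrp1 or Nrp2, stood at 36.6 and 21.9 CPM, a ratio of 0.599 (0.550 to 0.652). The membrane semaphorin Sema6d, which binds Plxna1, stood at 22.4 and 12.2 CPM, a ratio of 0.546 (0.487 to 0.611). Ephrin-B3 (Efnb3) stood at 37.3 and 21.6 CPM, a ratio of 0.578 (0.531 to 0.629). These 6 ligand and neuropilin genes and EphA5 had control and mutant intervals that did not overlap.

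The genes higher in the mutant dermis were a membrane semaphorin and a plexin. Sema6a stood at 64.1 CPM (62.2 to 66.1) and 118 CPM (114 to 122), 1.84-fold higher (1.76 to 1.92), and so passed muscle as the class with its highest level. Plxna1 stood at 12.97 CPM (12.1 to 13.9) and 20.1 CPM (18.6 to 21.7), 1.55-fold higher (1.40 to 1.72). Without cluster 11, a cluster of 819 mutant and 0 control cells described further on, Plxna1 stood at 12.97 and 17.6 CPM, a ratio of 1.36 (1.21 to 1.52), and the Sema3a and Sema3c ratios were 0.670 and 0.683, so these 3 genes fell inside 1.5-fold. In clusters 0 and 7 alone, the dermal clusters with at least 300 cells of each library, EphA5 was the 1 gene of these 9 that stayed past 1.5-fold, with a ratio of 0.252 (0.168 to 0.365). There the ratio was 0.860 for Nrp1, 1.08 for ephrin-A5, 0.907 for Sema3a, 1.003 for Sema3c, 0.767 for ephrin-B3, 1.45 for Sema6d, 1.30 for Sema6a and 1.25 for Plxna1. In those 2 clusters EphA4 (0.648) and Plxnb2 (1.51) passed 1.5-fold instead. The 19 other measured genes lay within 1.5-fold, between Sema6c at 10.8 and 7.25 CPM (ratio 0.673) and Plxnb2 at 43.7 and 54.9 CPM (ratio 1.26). They include the EphB receptors Ephb2 (18.4 and 19.4 CPM), Ephb3 (26.9 and 28.3 CPM) and Ephb4 (26.2 and 23.6 CPM), and Plxna4 at 14.0 and 13.9 CPM.

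**Figure D2:**
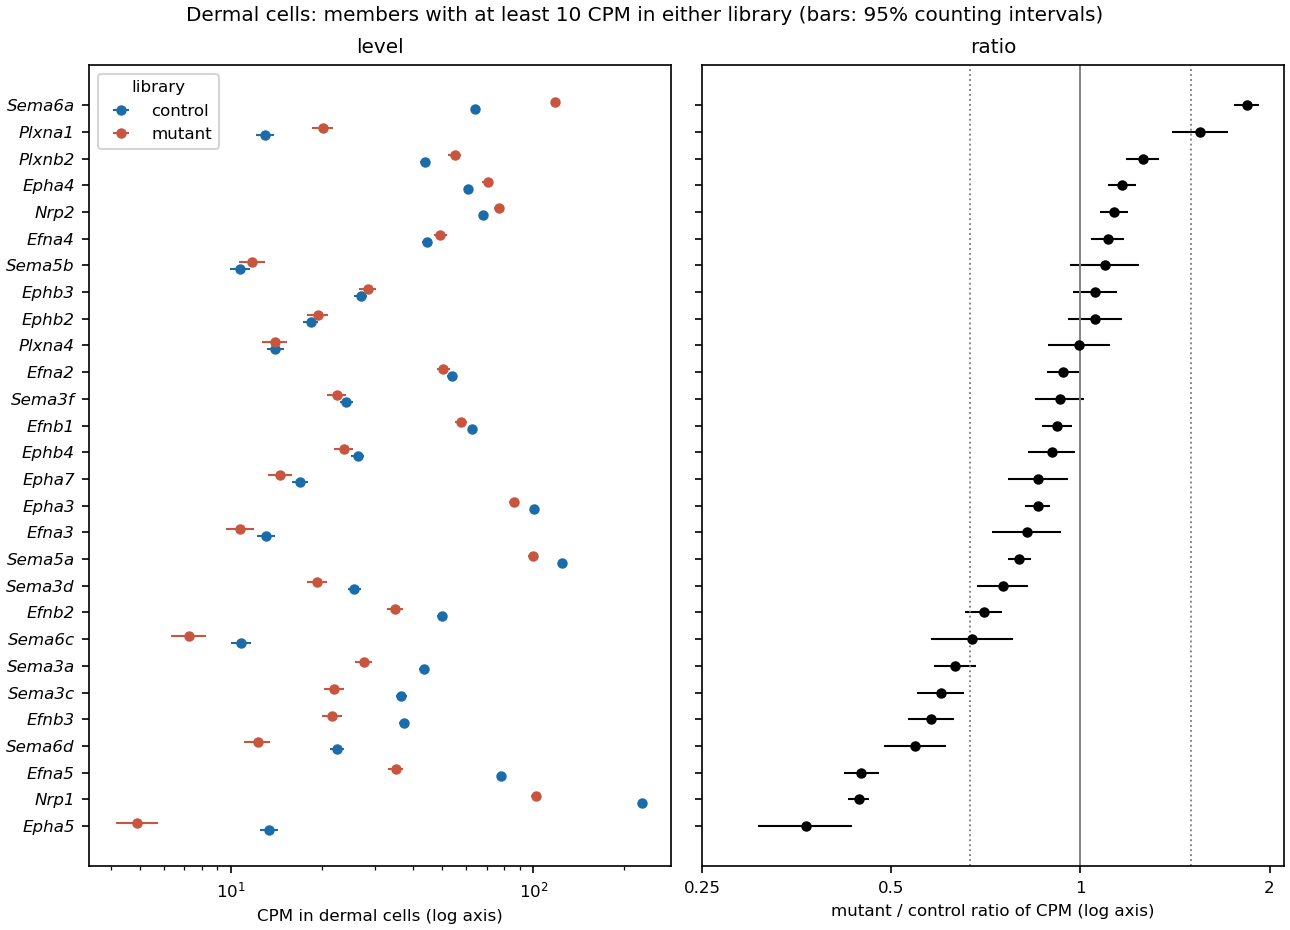
Level in CPM (left, log axis) in the control (blue) and mutant (red) library, and mutant over control ratio (right, log axis), of the 28 genes at 10 CPM or more in dermal cells, with 95% counting intervals. Dotted lines mark 1.5-fold either way. Nrp1, Efna5 and Epha5 lie lowest and Sema6a lies highest, at 1.84.

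The dermal class held cells of different kinds, and several of these genes differed strongly between them. Clusters with at least 500 control cells fell into a group with Crabp1, a retinoic acid binding protein of embryonic dermis, above 2000 CPM (clusters 2, 4 and 9, 3933 control cells) and a group below it (clusters 0, 1 and 7, 4820 control cells). The grouping was chosen after the clusters were seen, and the 53 genes took no part in the clustering. The comparison of clusters is a description. In the control library Lef1, a factor of the Wnt response, stood at 54.9 CPM in the Crabp1-high and 5.22 CPM in the Crabp1-low clusters. Of 29 measured genes 5 were at least 1.5-fold higher in the Crabp1-high clusters, where 10.7% of all genes were, and 14 were lower, where 11.6% were.

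The higher genes were Nrp1, ephrin-A5, Plxna4, Sema6d and Epha8. Nrp1 stood at 320 CPM in the Crabp1-high and 148 CPM in the Crabp1-low clusters, 2.16-fold higher (2.09 to 2.24). Ephrin-A5 stood at 115 and 45.3 CPM (2.38 to 2.69 for the ratio). Plxna4 stood at 27.9 and 1.47 CPM, 19.0-fold higher (14.2 to 25.9). With them, Sema6d stood at 43.4 and 3.57 CPM, 12.1-fold higher (10.1 to 14.8), and EphA8 (Epha8) at 13.1 and 0.240 CPM, the latter from 8 UMIs.

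Among the lower genes, EphA3, Nrp2 and Sema3c had the largest differences, and the others included further receptors and ligands. EphA3 stood at 4.53 CPM in the Crabp1-high and 188 CPM in the Crabp1-low clusters, 41.4-fold lower (35.0 to 49.5). EphA4 (Epha4), which binds both ephrin classes, stood at 14.5 and 102 CPM, 7.05-fold lower (6.38 to 7.81). EphA5 stood at 5.69 and 20.0 CPM, 3.52-fold lower (2.97 to 4.19), so in the control dermis the ligand ephrin-A5 was high where these 3 receptors were low. Of the other measured EphA receptors, EphA7 (Epha7) was also lower, at 12.5 and 20.9 CPM. EphA8 went the other way and was high together with ephrin-A5, at 13.1 and 0.240 CPM. Between the neuropilins the order was opposite: Nrp2 stood at 6.33 and 124 CPM, 19.5-fold lower (16.9 to 22.7), where Nrp1 was higher. Among the secreted ligands, Sema3c stood at 5.09 and 64.9 CPM, 12.7-fold lower (10.8 to 15.1), and Sema3a at 17.4 and 66.9 CPM, 3.84-fold lower (3.49 to 4.24). Ephrin-B2 stood at 20.1 and 76.3 CPM, and Sema5b at 2.16 and 18.5 CPM. Not all members took part: Sema6a stood at 65.5 and 62.9 CPM, Sema5a at 130 and 120 CPM, and Plxnb2 at 43.3 and 44.1 CPM.

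The mutant cells lay mostly in other clusters. Only 249 of them were in the Crabp1-high clusters and 1311 in the Crabp1-low clusters, while 3582 were in clusters 3, 5 and 11, which held 3 control cells in all. With 1 library per group, clusters of 1 library may be that library and not a cell type. In the mutant cells of the Crabp1-high clusters Nrp1 stood at 284 CPM, against 320 CPM in control cells there (ratio 0.887, 0.802 to 0.978). In the Crabp1-low clusters it stood at 107 and 148 CPM (ratio 0.723, 0.666 to 0.783), and in clusters 3, 5 and 11 at 89.5 CPM. Ephrin-A5 likewise stood at 91.6 and 115 CPM in the Crabp1-high clusters, at 41.8 and 45.3 CPM in the Crabp1-low clusters, and at 29.8 CPM in clusters 3, 5 and 11. For both genes the ratio within either group of shared clusters was nearer 1 than the ratio over all dermal cells.

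Within the Crabp1-low clusters 1 of 27 measured genes was at least 1.5-fold lower in mutant cells (2.49% of all genes) and 3 were higher (4.58%). The lower gene was EphA5, at 20.0 and 5.11 CPM in control and mutant cells, 3.92-fold lower (2.77 to 5.75). It stood at 4.84 CPM in clusters 3, 5 and 11, and at 4.78 CPM in mutant cells of the Crabp1-high clusters, so mutant cells of all 3 cluster groups had about the same low level. Control cells of the Crabp1-high clusters were already at 5.69 CPM. With 249 mutant cells the ratio there was 0.840 with a wide interval (0.333 to 1.77), so a lowering could be neither seen nor excluded. The higher genes of the Crabp1-low clusters were Plxnb2 (44.1 and 70.1 CPM), the secreted semaphorin Sema3d (30.2 and 53.2 CPM) and EphB1 (Ephb1, 7.62 and 13.9 CPM). Within the Crabp1-high clusters 3 of 23 genes were higher (4.85% of all genes) and 2 lower (4.76%), from 249 mutant cells. EphA3 had the largest ratio, at 4.53 and 12.3 CPM (2.72, 1.56 to 4.46), and Plxna1 stood at 11.6 and 19.1 CPM (1.65, 1.08 to 2.43). The lower genes were ephrin-B3 (ratio 0.588, 0.401 to 0.836) and Ephb4 (0.633, 0.372 to 1.009), the latter with an interval that included 1. Sema6a was among the higher, at 65.5 and 112 CPM, a ratio of 1.71 (1.45 to 2.01), and in the Crabp1-low clusters it stood at 62.9 and 74.1 CPM, a ratio of 1.18 (1.07 to 1.30). In clusters 0 and 7 alone, which held at least 300 cells of each library (2631 and 1132 in all), Sema3c stood at 71.7 and 72.0 CPM, Nrp1 at 117 and 101 CPM, and EphA5 at 21.4 and 5.38 CPM. Of the 3 higher genes of the Crabp1-low clusters, Sema3d (ratio 1.35, 1.19 to 1.54) and EphB1 (1.29, 0.992 to 1.65) were inside 1.5-fold there. Plxnb2 stayed just past it, at 1.51 (1.34 to 1.70). Cluster 1, the remaining Crabp1-low cluster, held 2189 control and 179 mutant cells.

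Cluster 11, with 819 mutant and 0 control cells, combined genes of both control groups. Its place in the dermal class was weak: 9 dermal markers reached 10 CPM, but their list had a mean log2 ratio of -0.116 to the average cluster. It had Crabp1 at 2778 CPM, Lef1 at 280 CPM, Ptch1 at 457 CPM and the condensate genes Gal and Foxd1 at 363 and 255 CPM. Over all dermal cells, 8 of 11 measured condensate genes were higher in the mutant library (4.38% of all genes) and 2, Bmp4 and Inhba, were lower (4.82%). The condensate list was chosen with earlier results of these data known, so this count is a description and no support for a reading of cluster 11. Like the Crabp1-high control clusters, cluster 11 had Plxna4 at 45.8 CPM (39.4 to 52.8) and Sema6d at 42.1 CPM (36.0 to 48.9), and little EphA3 (1.96 CPM) or Sema3c (0.726 CPM). Unlike them it had Nrp2 at 77.8 CPM (69.5 to 86.9) and EphA4 at 58.7 CPM (51.5 to 66.7), while Nrp1 stood at 130 CPM (120 to 142). Its Sema6a level of 227 CPM (212 to 242) was the highest of any dermal cluster, and Sema5a stood at 186 CPM (173 to 200) and Plxna1 at 37.2 CPM (31.5 to 43.6).

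**Figure D3:**
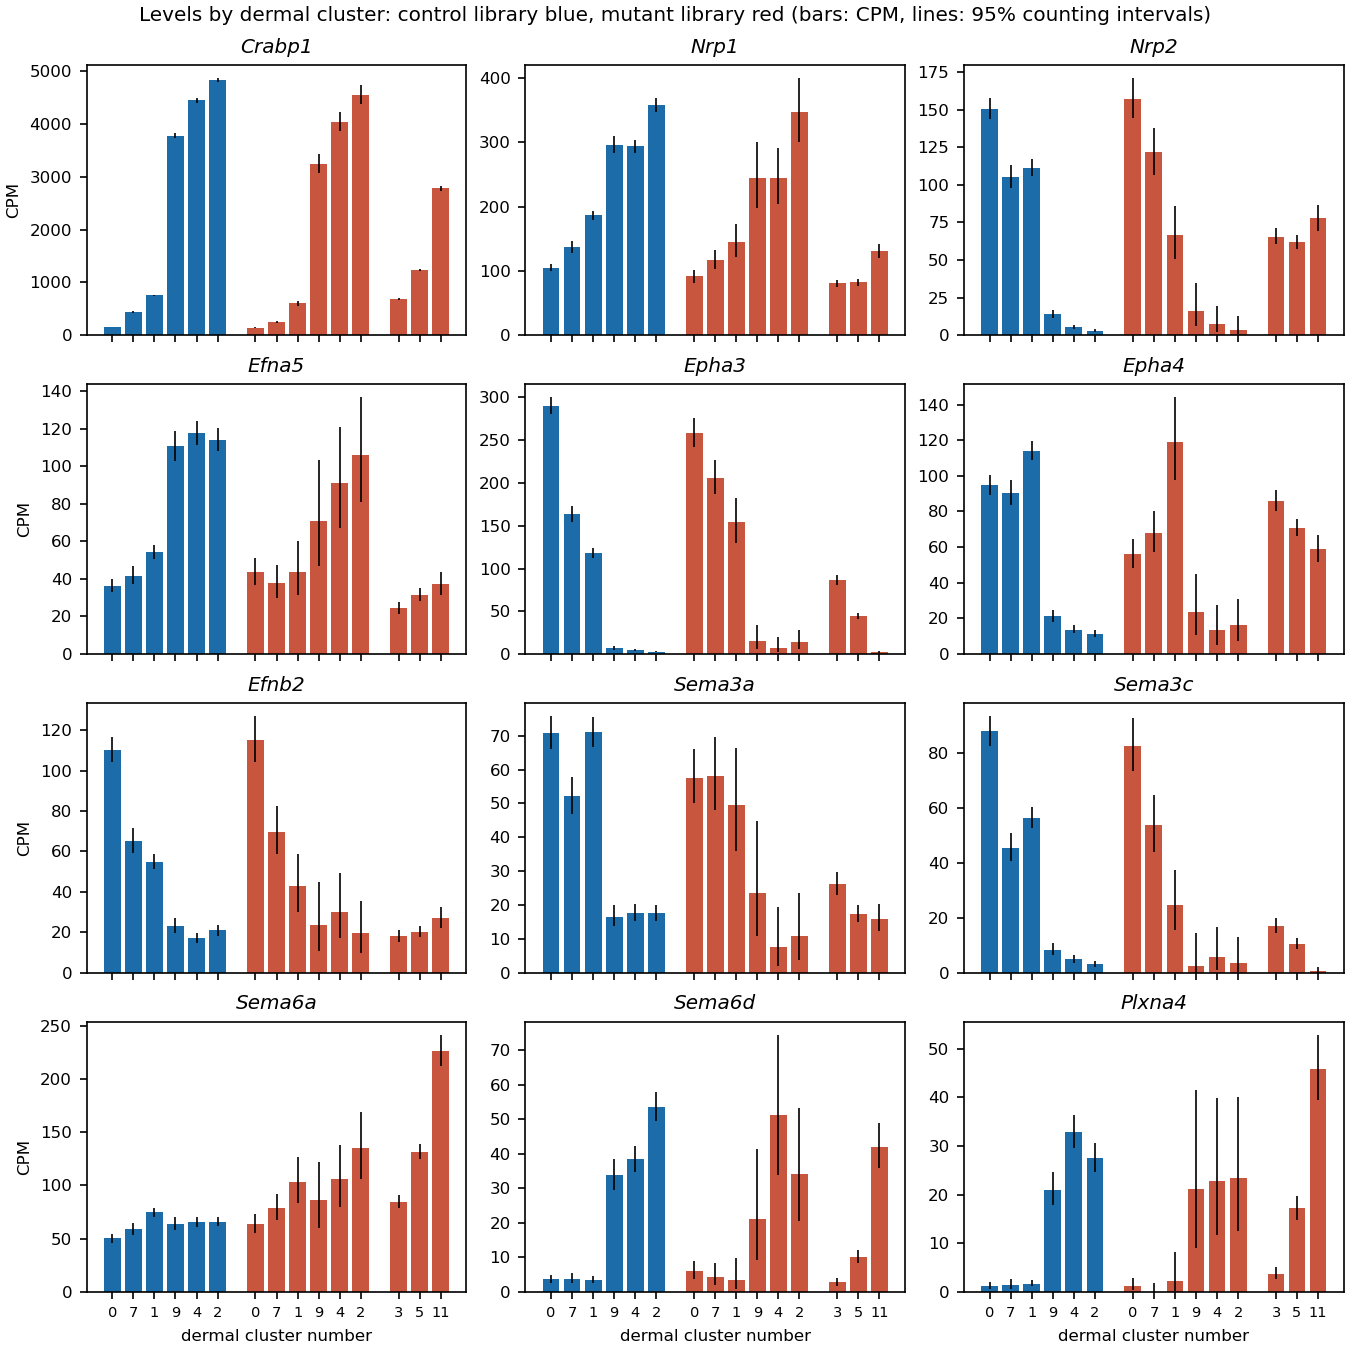
Level in CPM of Crabp1 and of 11 guidance genes in each dermal cluster of the control (blue) and mutant (red) library, with 95% counting intervals; the last 3 red bars are clusters 3, 5 and 11. In the control library Nrp1, Efna5, Sema6d and Plxna4 are high in clusters 9, 4 and 2, and Nrp2, Epha3, Epha4, Efnb2, Sema3a and Sema3c are high in clusters 0, 7 and 1.

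To compare the same signals without clusters, each dermal cell was thinned to 3000 UMIs and parted by its UMIs of Lef1 or of the Hedgehog targets Ptch1, Gli1 and Hhip. Shallower cells were left out, which kept 8469 and 4793 cells. A Lef1 UMI was found in 582 control cells (6.87%) and 705 mutant cells (14.7%), and a Hedgehog target UMI in 293 (3.46%) and 2663 (55.6%). These parts are ranges of counts, not cell types, and 280 control and 1071 mutant cells had exactly 1 Hedgehog target UMI. In the control library 4 of 30 genes were at least 1.5-fold higher in cells with a Lef1 UMI (5.07% of all genes) and 10 lower (5.59%). In the mutant library 8 of 27 were higher (8.84%) and 4 lower (7.16%).

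Plxna4 and Sema6d were higher in the Lef1 cells of both libraries. Plxna4 stood at 37.7 CPM with and 12.2 CPM without a Lef1 UMI in the control library, and at 45.2 and 8.87 CPM in the mutant library. Sema6d stood at 61.2 and 19.4 CPM in the control and 38.6 and 8.24 CPM in the mutant library. EphA3, Sema3a, Sema3c and Sema5b were lower in the Lef1 cells of both libraries, EphA3 at 14.5 and 107 CPM in the control and 8.99 and 95.9 CPM in the mutant library. Sema6a differed: it stood at 59.0 and 64.7 CPM in control cells with and without a Lef1 UMI, and at 207 and 104 CPM in mutant cells. Nrp2 stood at 15.2 and 71.9 CPM in the control and 82.6 and 74.9 CPM in the mutant library. Whether these within-library ratios differ between the conditions was not tested, since each condition had 1 library.

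Mutant over control, Sema6a was 3.52-fold higher in cells with a Lef1 UMI (3.07 to 4.04) and 1.61-fold higher in cells without (1.53 to 1.69). In cells with neither a Lef1 nor a Hedgehog target UMI it stood at 64.5 and 88.1 CPM, a ratio of 1.37 (1.27 to 1.46). Nrp1 was lower on both sides of the Hedgehog division: it stood at 297 and 90.3 CPM in cells with a Hedgehog target UMI, and at 227 and 116 CPM in cells without. EphA5 was lower with a Hedgehog target UMI (11.2 and 4.98 CPM) and without (13.4 and 4.79 CPM). Sema3c stood at 37.0 and 32.9 CPM in cells without a Hedgehog target UMI, a ratio of 0.890 (0.8005 to 0.988), and at 19.8 and 13.2 CPM in cells with such a UMI. Between cells with and without a Hedgehog target UMI of the same library, 1 of 29 genes was higher (1.89% of all genes) and 5 lower (2.62%) in the control library, and 1 of 26 higher (2.81%) and 4 lower (4.52%) in the mutant library. EphA3, ephrin-B2 and Sema3c were among the lower genes in both, ephrin-B2 at 30.6 and 50.2 CPM in control and 21.8 and 51.9 CPM in mutant cells with and without such a UMI.

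In epidermal cells 18 of 53 genes reached 10 CPM, of which 2 were higher in the mutant library (4.16% of all 7309 measured genes) and 3 lower (2.7%). Their median log2 ratio was -0.12, against 0.06 over all measured genes. Sema6d (chr2:124089969-124667770, plus strand) gave the largest ratio of these genes in the class. It stood at 24.4 CPM (20.5 to 28.8, 141 UMIs) in the control and 1.79 CPM (1.10 to 2.77, 20 UMIs) in the mutant library, 13.6-fold lower (8.48 to 22.9). In muscle cells, given here as a background, it stood at 1.22 CPM (18 UMIs) and 0.600 CPM (4 UMIs). At least 1 Sema6d UMI was seen in 21.5% of control and 1.37% of mutant epidermal cells, and in 1.51% and 0.553% of muscle cells, with median depths of 9783 and 7657 UMIs in epidermis and 14477 and 8716 UMIs in muscle. Within the mutant library the epidermal level was above that of muscle, with overlapping intervals (0.163 to 1.54 CPM in muscle). Lef1 in the epidermis stood at 201 CPM in control cells without Dkk4 and 45.2 CPM in mutant cells.

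Sema6a, higher in mutant dermis, was lower in mutant epidermis, at 14.2 (11.3 to 17.6) and 5.74 CPM (4.42 to 7.33), a ratio of 0.405 (0.287 to 0.568). Sema3c (chr5:17574281-17730268, plus strand), lower in mutant dermis, was higher in mutant epidermis, at 12.6 (9.90 to 15.9) and 33.9 CPM (30.6 to 37.5), 2.68-fold (2.08 to 3.50). EphA4 stood at 6.92 and 16.1 CPM, 2.32-fold higher (1.64 to 3.36), and is named after its value was seen. Ephrin-A5 was lower as in the dermis, at 31.5 and 20.9 CPM, 1.51-fold (1.23 to 1.84). It fell inside 1.5-fold when cells with at least 500 genes were kept, when doublet calls were kept, and when cells were thinned to 3000 UMIs. The 10 dermal markers summed to 421 and 301 CPM in epidermal cells, against 10258 and 7375 CPM in dermal cells, and Nrp1, the gene of these families with the highest level in control dermis, stood at 1.38 and 2.42 CPM there. The other 13 measured genes lay within 1.5-fold, among them EphA1, ephrin-A4 and Sema3f (25.9 and 30.9 CPM).

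Dkk4, a gene of hair placodes, was seen in 82 control and 0 of 1390 mutant epidermal cells, so the libraries were also compared without these cells. In the 471 control cells without a Dkk4 UMI, Sema6d stood at 23.3 CPM, Sema6a at 11.7 CPM, Sema3c at 12.4 CPM and EphA4 at 6.59 CPM, each on the same side of its mutant level as before. In the 82 Dkk4 cells Sema6a stood at 27.1 CPM (17.5 to 39.97), above the control cells without Dkk4 (8.89 to 15.2), and ephrin-B2 at 69.3 CPM (53.4 to 88.5) against 48.0 CPM (42.0 to 54.5). Differentiating cells with a Krt1 or Krt10 UMI had Sema6d at 28.4 CPM in the control and 1.42 CPM in the mutant library, and cells with none of these genes 17.8 and 2.09 CPM. The Sema3c difference was likewise present in both, at 11.6 and 31.3 CPM in the first and 13.1 and 35.9 CPM in the second.

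**Figure D4:**
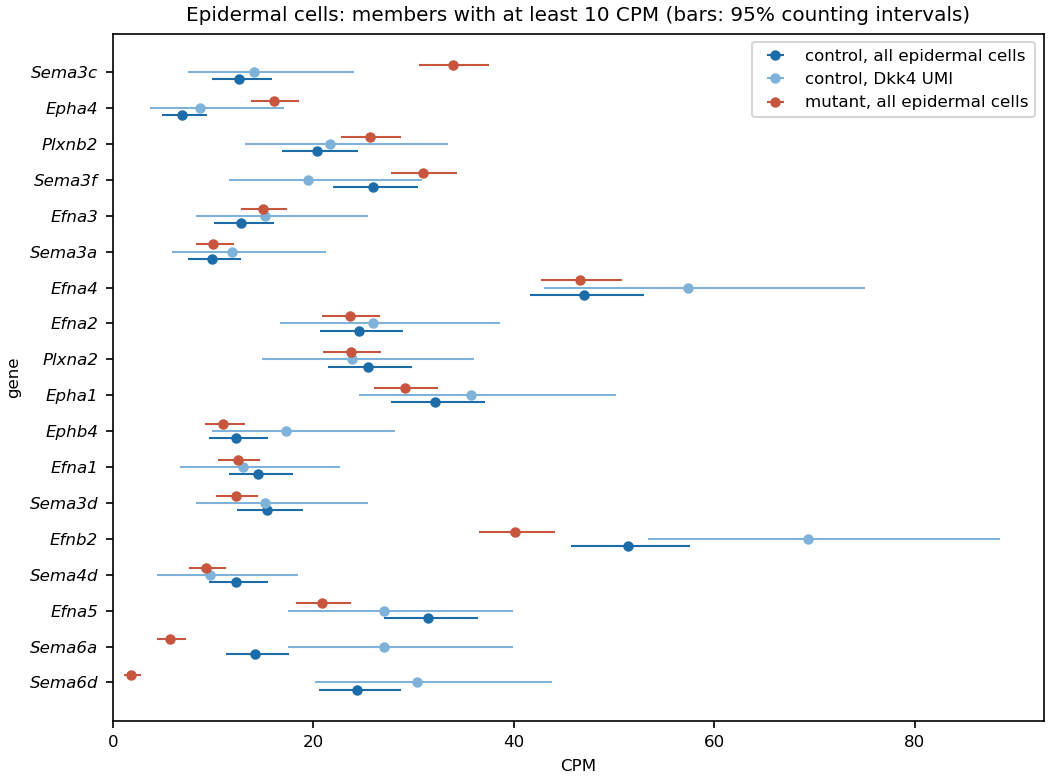
Level in CPM of the 18 genes at 10 CPM or more in epidermal cells, ordered by mutant over control ratio, for all control cells (dark blue), control cells with a Dkk4 UMI (light blue) and all mutant cells (red), with 95% counting intervals. Mutant Sema6d lies at 1.79 CPM and mutant Sema3c at 33.9 CPM, both clear of the control intervals.

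Lists of known partners and effectors of these families were counted by the same rule, which found 4.38% of all measured genes higher and 4.82% lower in dermal cells, and 4.16% and 2.7% in epidermal cells. Each list gave 1 to 3 genes in a direction, which is given as a description. In dermal cells 1 of 23 measured semaphorin partners was higher, the cytoplasmic semaphorin mediator Crmp1 (7.34 and 13.6 CPM), and 3 were lower. The lower genes were the cell adhesion molecule Nrcam (33.4 and 6.85 CPM), Crmp1's relative Dpysl3 (155 and 63.6 CPM) and Pgf, a growth factor that binds Nrp1 (12.4 and 5.48 CPM). Of 22 measured Eph and ephrin effectors the Rac activator Tiam1 was higher (10.4 and 31.1 CPM), and the exchange factor Vav3 (11.7 and 4.65 CPM) and Chn2 (10.96 and 3.44 CPM) were lower. Of 10 measured genes of the slit, netrin and RGM families, Rgmb was higher (35.2 and 66.3 CPM) and the netrin receptor Unc5d lower (10.1 and 1.73 CPM).

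In the epidermis Tiam1 was also higher (21.5 and 39.3 CPM) and Vav3 lower (44.5 and 19.1 CPM), out of 18 measured effectors. Of 16 semaphorin partners Vegfa, a growth factor that binds neuropilins, was higher (6.57 and 13.8 CPM) and Rras, a small GTPase that plexins act on, was lower (14.9 and 9.06 CPM). Among 4 measured genes of the other guidance families, the slit receptor Robo2 (6.92 and 26.2 CPM) and Rgma (28.7 and 48.5 CPM) were higher. Rgmb was the 1 lower gene of these 4, at 88.9 and 39.5 CPM, and higher in the dermis.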

How the data were processed

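UMI counts per gene and barcode are used as the authors deposited them, whole numbers in 1 matrix per library. Per the submitters' processing notes they were made with Cell Ranger 5.0.1 on mm10, and the features include eYFP. Per the labels' protocols, skin was dissociated in 0.25% trypsin for 20 min at 37 °C, and DAPI-stained cells were sorted.

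Barcodes with at least 1000 genes and at most 10% mitochondrial UMIs were kept and Scrublet doublets removed (scanpy 1.11.5, expected rate 8%; 593 control and 269 mutant calls). Both libraries were clustered together by Leiden at resolution 1.0 on 30 principal components of 2000 variable genes without the 53 members. Clusters took names from 14 marker lists. That only lists with at least 3 markers at 10 CPM may name a cluster was added after cluster 11 was seen. Libraries shared 37 kept barcodes. Median depth was 7442 and 6662 UMIs per cell.

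UMIs were summed per class and library and scaled to 1000000. CPM carry exact Poisson intervals and ratios exact conditional binomial intervals. Ratio calculations were tested on simulated data. Genes were named where they had at least 20 CPM and a ratio of at least 1.5 with an interval without 1, in classes of at least 150 cells per library, as the 3 highest of such a class, or at 5 times the next class. Alternatives changed cell filters, doublets, scaling, depth, clustering, class definition and minimum level. The members and lists were chosen with earlier results of these data known.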

Additional observations from a re-analysis of the deposited data

Results flagged for a closer look

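Sema3c differed in opposite directions in 2 cell classes: its mutant over control ratio was 0.599 in dermal and 2.68 in epidermal cells. Sema6a ran the other way, at 1.84 in dermal and 0.405 in epidermal cells. EphA5 (Epha5) had a ratio of 0.365 in dermal cells and 1.88 in Schwann and glial cells, the latter from 47 and 30 UMIs. Each interval left out 1. With 1 library per condition, the difference between the classes was not tested.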

How the results depend on the processing

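In dermal cells 2 genes were at least 1.5-fold higher and 7 lower. A minimum of 50 CPM gave 1 and 2 of 10 genes (4.37% and 3.37% of all genes), and no minimum 6 and 16 of 53 (17.2% and 22.1%). Clusters 0 and 7 alone, chosen after seeing the data, gave 1 and 2 (2.9% and 1.69% of all genes), with 1 of the 9 genes kept (EphA5), and a median log2 ratio of 0.0044 in place of -0.18. There Efna5 (0.11), Sema3c (0.0041) and Sema6d (0.44) changed sign on the log2 scale, with 1 CPM added, but the interval of each ratio included 1 (0.928 to 1.26, 0.895 to 1.12 and 0.913 to 2.26); the cause was not tested. Without cluster 11, 1 gene was higher (4.5% of all genes), with Plxna1 lost, and 7 were lower (5.29%). Among these 7, Plxna4 and Sema6c took the place of Sema3a and Sema3c. In epidermal cells 2 genes were higher and 3 lower: a minimum of 50 CPM left 1 gene and 0 calls in each direction (2.73% and 1.86% of all genes), and no minimum gave 11 and 11 of 47 (21.6% and 15%). The other 70 values of counts and medians moved by at most 1.5-fold or the counting interval. The number of genes with the same highest class ranged from 26 to 37. Of the values of single genes, 112 stayed within their interval, 29 moved and 3 changed sign. No paired analysis was possible because each group had 1 library.

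Counting error is small in dermal cells and wide below 200 cells, and neither covers the spread between embryos. A library difference in stress, axial position or hemoglobin RNA cannot be told apart from genotype.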
